A study of Mus musculus with 3 samples.

Results

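Endothelial cells with at most 1 transcript molecule of each of the pericyte genes *Kcnj8* and *Abcc9* were picked out of 3 droplet libraries of sorted mouse hindbrain cells. The members were chosen by their own counts: barcodes with at least 3000 unique molecular identifiers (UMIs, counts of captured transcript molecules), at most 20% of UMIs from mitochondrial (mt-) genes, at least 10 UMIs of *Cldn5*, at most 1 UMI each of the pericyte genes *Kcnj8* and *Abcc9* and of the arterial gene *Gkn3*, and fewer than 30 of the smooth muscle gene *Acta2*. Of the 8082 barcodes that met the limits on depth and mitochondrial UMIs, 755 (9.34%) were members. They comprised 682 of 4712 barcodes (14.5%) in the *Gipr*EYFP library, 62 of 2185 (2.84%) in *Glp1r*EYFP replicate 1 and 11 of 1185 (0.928%) in *Glp1r*EYFP replicate 2. No member barcode was shared between libraries.

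The study profiled hindbrain cells that carry an EYFP reporter under the control of *Gipr* or *Glp1r*, the genes of the receptors for the gut hormones GIP and GLP-1. *Gipr*EYFP mice were bred from *Gipr*-Cre mice and an EYFP reporter strain, so that a cell that expressed Cre earlier in life can remain marked, and the *Glp1r*EYFP cells came from mice with the corresponding *Glp1r* genotype. For each library, brainstem tissue from 4 to 6 male mice aged 4 to 6 weeks, taken between -6.00 and -8.12 mm from Bregma, was pooled and digested with papain, and cells were sorted on size, granularity, singlet pulse width, EYFP and the nuclear stain DraQ5 before capture with the 10x Chromium 3′ kit, version 3. There was 1 *Gipr*EYFP library and 2 *Glp1r*EYFP libraries, with no treatment and no reporter-negative library, and because animals were pooled no value belongs to a single mouse.

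Brain endothelial cells line the vessels of the central nervous system and form the blood-brain barrier: tight junctions seal the gaps between them, little is carried across in vesicles, and nutrients enter through solute carriers while efflux pumps return lipophilic compounds to the blood. Wnt and beta-catenin signaling, together with contact to pericytes and astrocyte endfeet, is known to maintain this state. In the area postrema, a circumventricular organ of the hindbrain, capillaries are instead fenestrated and express *Plvap*, the protein of the fenestral diaphragm, in place of *Cldn5*.

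The values that chose the members are given as a description only. *Cldn5* (ENSMUSG00000041378), the main claudin of the endothelial tight junction, ranged from 10 to 157 UMIs per member with a median of 28 in the *Gipr*EYFP library, from 10 to 111 with a median of 24 in *Glp1r*EYFP replicate 1 and from 13 to 57 with a median of 26 in *Glp1r*EYFP replicate 2. *Kcnj8* was at 0 UMIs in 92.5%, 98.4% and 100% of members in that order of libraries, *Abcc9* in 83.1%, 98.4% and 100%, and *Acta2* in 84.2%, 51.6% and 36.4%. The highest *Acta2* count of any member was 5, 6 and 9 UMIs, so the limit of 30 lay in a gap. At the edges of the rule in the *Gipr*EYFP library, with all other limits met, 5 barcodes had 9 *Cldn5* UMIs and 9 had 10, 115 had 1 *Abcc9* UMI and 43 had 2, and 51 had 1 *Kcnj8* UMI and 14 had 2. The limit on *Abcc9* therefore cut through a continuous tail, whereas few barcodes lay near the limit on *Cldn5*.

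What the other *Cldn5*-rich barcodes carried differed between the libraries. At least 10 *Cldn5* UMIs were found in 1570 barcodes of the *Gipr*EYFP library, 248 of *Glp1r*EYFP replicate 1 and 30 of *Glp1r*EYFP replicate 2. In the *Gipr*EYFP library, 831 of them (52.9%) had more than 1 UMI of *Kcnj8* or *Abcc9* with fewer than 30 of *Acta2*, and 33 (2.10%) had 30 or more of *Acta2*. In *Glp1r*EYFP replicate 1 the corresponding numbers were 22 (8.87%) and 149 (60.1%), and in replicate 2 they were 0 and 14 (46.7%). Droplets with endothelial transcripts thus held pericyte transcripts mainly in the *Gipr*EYFP library and smooth muscle transcripts mainly in the *Glp1r*EYFP libraries. Doublets were not removed beyond the limits of the rule, and Scrublet, set to remove the 178, 38 and 11 barcodes with the highest scores, would have removed 7, 0 and 0 members.

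**Figure D1:**
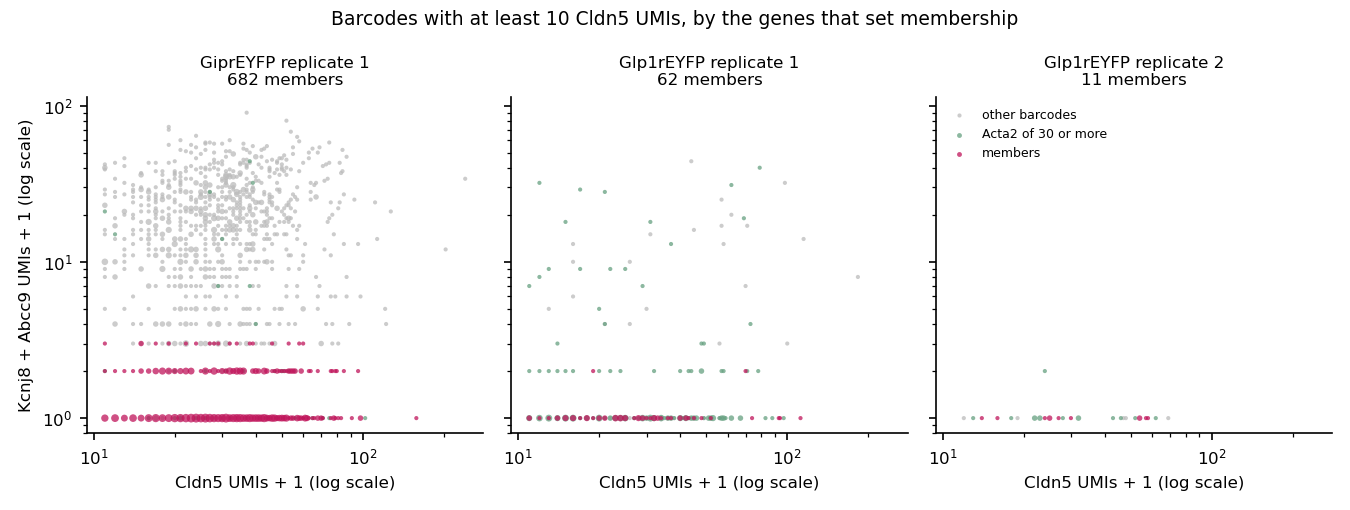
Barcodes with at least 10 *Cldn5* UMIs in each library, with *Cldn5* UMIs + 1 on the horizontal axis and *Kcnj8* plus *Abcc9* UMIs + 1 on the vertical axis, both logarithmic. Members (682, 62 and 11) lie along the lower edge, barcodes with 30 or more *Acta2* UMIs are marked apart, and the upper cloud of the *Gipr*EYFP library is the droplets that also held pericyte transcripts.

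Members had a median of 7184, 5243 and 5641 UMIs (*Gipr*EYFP, then *Glp1r*EYFP replicates 1 and 2, the order kept below wherever 3 values are given) and a median of 2951.5, 2353 and 2448 genes. Summed over the members of a library, the UMIs came to 5453930, 402349 and 82541, so a level in *Glp1r*EYFP replicate 2 rests on far fewer molecules than one in the *Gipr*EYFP library. Levels are given as UMIs per 1000000 UMIs summed over members (CPM), with exact Poisson 95% intervals that cover counting error only. Because UMIs of a 3′ kit count molecule ends, CPM does not grow with transcript length.

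The label was checked against markers. The 4 markers of the type that the rule had not used were abundant in all libraries. *Ly6c1* (ENSMUSG00000079018), a GPI-anchored surface protein of brain endothelium, was at 5578, 5088 and 4713 CPM and had a UMI in every member. *Itm2a* (ENSMUSG00000031239), a membrane protein enriched in brain endothelium, was at 5262, 5721 and 6130 CPM. *Slco1c1* (ENSMUSG00000030235), which carries thyroxine, was at 1598, 982 and 1102 CPM, and *Slco1a4* (ENSMUSG00000030237), an organic anion carrier, at 3603, 1757 and 1636 CPM. Without *Cldn5*, which the rule used, these 4 markers summed to 16040, 13550 and 13580 CPM in members, 3780, 956 and 282 CPM in empty droplets (barcodes with at most 100 UMIs, taken as the level of free RNA) and at most 34.15 CPM in oligodendrocytes. Reads of near-identical copies, such as *Ly6c1* and *Ly6c2*, could be split by the counting, which makes the level of such a gene uncertain.

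The proximal promoters of the markers are shown because their RNAs were present together in nearly all members. For all 5 markers a RefSeq promoter window of GRCm38.p6 was found, and the 250 bases before the start were searched on both strands for AGGAAG and its reverse complement CTTCCT, the core word bound by ETS factors such as ERG and FLI1, which are known for endothelial gene expression. *Ly6c1* had 2 such windows, and the word was in 4 of the 6 windows, in 1 of the 2 of *Ly6c1*, against 9686 of 32851 promoters (29.5%) over the genome. It begins 104 bases before the start of *Slco1a4* and 128 bases before that of *Slco1c1*, and it is not in these letters of the *Cldn5* window. The windows lie at chr16:18776597-18776846 on the plus strand (*Cldn5*), chr6:141856221-141856470 on the minus strand (*Slco1a4*) and chr6:141524104-141524353 on the plus strand (*Slco1c1*). They are written 5′ to 3′ with the word in capitals, and a match is a description of the letters only.
Cldn5: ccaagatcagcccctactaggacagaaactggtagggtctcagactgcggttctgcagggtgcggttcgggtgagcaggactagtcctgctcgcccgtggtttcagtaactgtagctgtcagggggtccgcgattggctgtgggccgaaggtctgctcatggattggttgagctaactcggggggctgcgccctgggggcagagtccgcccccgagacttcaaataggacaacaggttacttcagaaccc
Slco1a4: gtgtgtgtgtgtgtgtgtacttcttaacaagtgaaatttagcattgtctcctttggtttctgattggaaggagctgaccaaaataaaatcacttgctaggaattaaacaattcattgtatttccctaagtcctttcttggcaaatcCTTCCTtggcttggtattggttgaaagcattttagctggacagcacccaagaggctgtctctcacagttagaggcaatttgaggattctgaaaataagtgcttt
Slco1c1: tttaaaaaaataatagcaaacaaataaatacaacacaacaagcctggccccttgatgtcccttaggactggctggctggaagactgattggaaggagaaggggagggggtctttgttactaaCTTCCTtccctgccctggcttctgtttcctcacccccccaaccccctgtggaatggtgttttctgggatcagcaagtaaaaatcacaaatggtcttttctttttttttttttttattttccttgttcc

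General endothelial genes gave the same picture. All 20 genes of the endothelial list had at least 10 CPM in members of every library, and 20, 17 and 17 of them had at least 100 CPM. The list summed to 13900, 11140 and 10940 CPM in members, 3909, 1269 and 504 CPM in empty droplets and at most 44.8 CPM in oligodendrocytes. *Flt1*, a VEGF receptor that acts largely as a decoy, led it with 2986, 2038 and 1648 CPM. *Pecam1*, the adhesion molecule of endothelial borders, was at 1034, 452 and 485 CPM, and *Cdh5*, the cadherin of endothelial adherens junctions, at 886, 522 and 448 CPM.

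The marker lists of other cell types summed to lower levels than in the free RNA, with 1 exception. Without *Kcnj8* and *Abcc9*, which the rule limited, the pericyte list summed to 2837, 1362 and 739 CPM in members against 12250, 2994 and 2145 CPM in empty droplets, with *Rgs5* the most abundant at 2015, 907 and 497 CPM. Members were thus not free of pericyte transcripts, and the limit held for *Kcnj8* and *Abcc9* alone. The smooth muscle list without *Acta2*, which the rule also limited, summed to 217, 393 and 606 CPM against 3577, 21310 and 21240 CPM, and the oligodendrocyte list to 1812, 174 and 84.8 CPM against 25040, 13070 and 11930 CPM. Astrocyte and ependymal markers summed to 65.5, 281 and 24.2 CPM, microglial markers to 3.48, 281 and 24.2 CPM, neuronal markers to 7.70, 2.49 and 12.1 CPM and fibroblast-like markers to 64.2, 9.94 and 0 CPM. *Ccdc153*, *Syt1*, *Rbfox3*, *Slc17a6* and *Elavl4* were at 0 UMIs in members of all 3 libraries. The exception was the blood list in the *Gipr*EYFP library, where it summed to 2713 CPM in members and 118 CPM in empty droplets, led by *Hbb-bs* at 1816 CPM from 9 of 682 members. The free RNA differed in composition between the libraries in the same way as the rejected barcodes did, and its part in the members' levels was not tested.

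**Figure D2:**
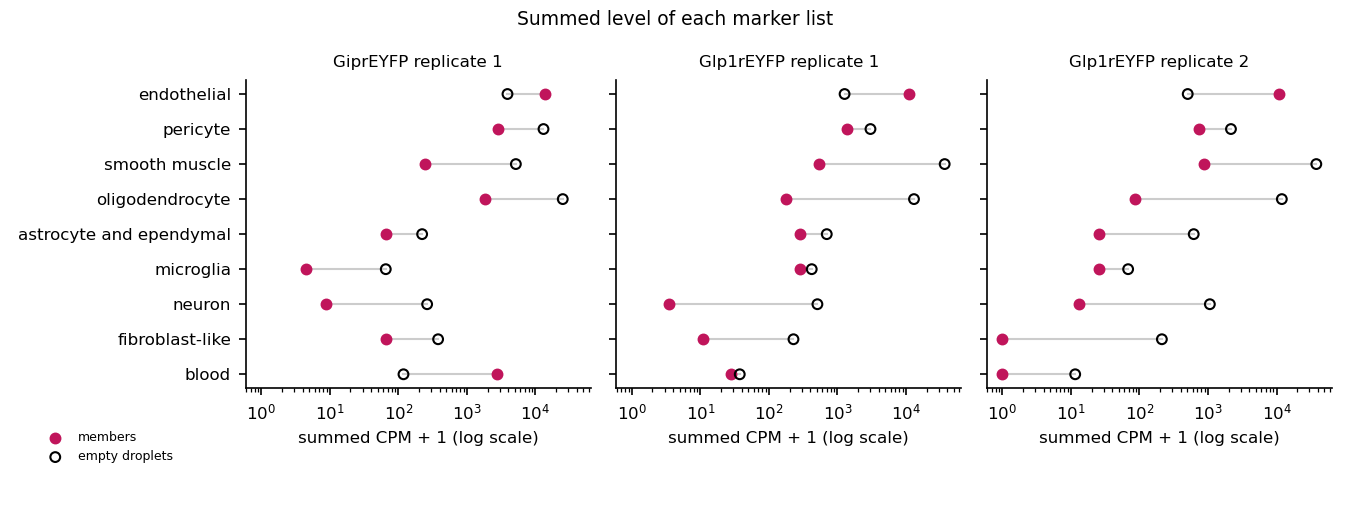
Summed level of each marker list in members (filled) and in empty droplets (open), in CPM + 1 on a logarithmic axis, with 1 panel per library. The endothelial list is higher in members than in empty droplets in all 3 panels, the blood list in the *Gipr*EYFP panel only, and the other lists lie to the left of the open circle. The pericyte list as drawn holds *Kcnj8* and *Abcc9* and the smooth muscle list *Acta2*, which the rule limited.

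*Rgs5*, a regulator of G protein signaling that is abundant in pericytes, was the pericyte marker with the highest level in members. It had a UMI in 84.5%, 72.6% and 36.4% of members, while *Vtn*, the pericyte-secreted vitronectin, had one in 55.7%, 27.4% and 9.09%. The number of *Rgs5* UMIs per *Vtn* UMI was 8.15, 10.4 and 41 in members, against 0.48 in pericytes, 0.666 in droplets with endothelial and pericyte transcripts and 0.686 in empty droplets of the *Gipr*EYFP library, and 2.25 and 2.45 in empty droplets of the *Glp1r*EYFP libraries. The ratio of 41 in members of *Glp1r*EYFP replicate 2 rests on 1 *Vtn* UMI. In the 267, 44 and 10 members without a single UMI of *Vtn*, *Kcnj8* or *Abcc9*, *Rgs5* had a UMI in 77.9%, 63.6% and 30.0% of cells, at 1605, 556 and 440 CPM, which is a description of members selected on those genes. As a cell type not known for *Rgs5*, oligodendrocytes (medians of 23539, 11892 and 10989 UMIs) had a UMI in 40.4%, 5.73% and 4.71% of cells, at 28.5, 4.51 and 4.33 CPM. The parts of pericyte RNA and of free RNA in the *Rgs5* of members were not tested. In *Glp1r*EYFP replicate 2, a single member held 73.2% of the 41 *Rgs5* UMIs. The limit on *Gkn3* alone kept out 24, 15 and 5 barcodes, and in the 10, 12 and 4 of them with at least 5 *Gkn3* UMIs the level of *Rgs5* was 3224, 2819 and 3091 CPM.

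The genes with the highest levels were led by *Malat1*, a nuclear noncoding RNA, and *Bsg*. *Bsg* encodes basigin, the glycoprotein that accompanies monocarboxylate carriers to the membrane, and was at 21240, 27840 and 26330 CPM, against 5782, 2439 and 1169 CPM in empty droplets. *Tmsb4x*, *Cxcl12*, *Ly6a*, *Actb*, *Igfbp7*, *Ptma*, *Pltp*, *Tsc22d1*, *Ubb* and *Tpt1* completed the 15 genes with the highest lowest level besides the markers. *Cxcl12*, a chemokine held on endothelial surfaces, was at 4408, 3403 and 3998 CPM, and *Ly6a* (Sca-1) at 3355, 3196 and 3647 CPM. Among the genes with at least 100 CPM in members of every library, those with large ratios over the highest level in pericytes or oligodendrocytes included, besides the rule gene *Cldn5*, *Tmem252* (72.2-fold), *Sox17* (69.5-fold), *Icam2* (68.0-fold) and *Vwa1* (62.0-fold). *Sox17* and *Sox18* are endothelial SOX factors, *Icam2* is an adhesion molecule for leukocytes and *Vwa1* is an extracellular matrix protein. Further genes of this order were *AU021092*, *Slc38a5*, *Sox18*, *Degs2*, *Ly6a*, *Slc7a5*, *Mecom*, *Clec14a* and *Wfdc1*, at ratios between 56.6 and 43.3. Membership was set from the same counts, so no test was made of these ratios.

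The transport genes of the barrier were broadly present. Of the 31 solute carriers listed, 30 were in the gene set, and 20, 20 and 18 had at least 100 CPM. *Slc2a1*, the glucose carrier GLUT1, was at 1729 (95% interval, 1694 to 1764), 1330 (1219 to 1447) and 1648 (1382 to 1949) CPM. *Slc6a6*, the taurine carrier, was at 1304, 1700 and 1224 CPM, and *Mfsd2a*, which imports lysophospholipids and restrains vesicle traffic, at 533, 425 and 473 CPM. *Slc7a5* and *Slc3a2*, the light and heavy chains of the large neutral amino acid carrier, were at 376, 365 and 569 CPM and at 633, 470 and 399.8 CPM, and *Slc22a8*, an organic anion carrier, was at 478, 445 and 364 CPM. *Slc16a1*, the monocarboxylate carrier that pairs with basigin, was at 359.7, 181 and 206 CPM, and *Slc40a1*, the iron exporter ferroportin, at 342, 340.5 and 194 CPM. Each of these named carriers was higher in members than in empty droplets of the same library.

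Efflux rested on few pumps. *Abcg2*, the breast cancer resistance protein, was at 1235, 1118 and 1042 CPM and *Abcb1a*, P-glycoprotein, at 988, 828 and 630 CPM, and *Abcc4* followed at 134, 89.5 and 60.6 CPM. The paralog *Abcb1b* had 1 UMI in the *Gipr*EYFP members and 0 in the others. Of the 9 pumps listed, 3, 2 and 2 reached 100 CPM. Whether the counting kept the reads of *Abcb1a* and *Abcb1b* apart is not given in the sources used here.

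Among junction genes, 13, 12 and 11 of the 26 found had at least 100 CPM. *Tjp1* (ZO-1), the scaffold under the tight junction, was at 879, 524 and 581.5 CPM, *Ocln* (occludin) at 398, 383 and 230.2 CPM and *Esam*, an endothelial adhesion molecule, at 663, 756 and 896.5 CPM. *Cldn5*, on which the members were selected, was at 3938, 4608 and 4519 CPM. The rule did not use the other claudins. *Cldnd1*, a claudin domain protein, was at 113, 142 and 96.9 CPM, *Cldn12* at 6.97, 2.49 and 12.1 CPM, *Cldn1* had 1 UMI in all members and *Cldn3* had 0. *Cldn11*, a claudin of myelin, was at 72.2, 4.97 and 24.2 CPM with 32.2% of its *Gipr*EYFP UMIs in 1 member, and empty droplets held 1135, 549 and 505 CPM of it.

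All 19 genes of the Wnt and beta-catenin list had at least 10 CPM in members of every library. *Lef1*, a nuclear partner of beta-catenin, was at 584.5, 398 and 399.8 CPM, and *Foxq1*, a forkhead factor of brain endothelium, at 371, 413 and 182 CPM. *Nkd1* and *Apcdd1*, which are induced by the pathway and restrain it, were at 397.5, 333 and 291 CPM and at 309.9, 241 and 145 CPM. The receptor *Fzd4* was at 131, 87.0 and 96.9 CPM. Among other transcription factors, *Klf2*, which responds to flow, was at 1961, 2421 and 2605 CPM, and *Tsc22d1* at 2844, 2734 and 2411 CPM. *Pdgfb*, the signal that recruits pericytes, was at 224, 248.5 and 242 CPM, and *Kitl*, the ligand of KIT, at 1227, 855 and 691 CPM.

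Of the receptors for blood-borne proteins, *Igf1r* was at 605, 606 and 303 CPM, the Fc receptor *Fcgrt* at 450.1, 549 and 327 CPM, the transferrin receptor *Tfrc* at 430.5, 194 and 84.8 CPM and the insulin receptor *Insr* at 126, 69.6 and 48.5 CPM. *Lepr*, the leptin receptor, was at 30.4, 17.4 and 0 CPM, where 0 of 82541 UMIs allows up to 36.4 CPM. *Ramp2* and *Calcrl*, which together form the adrenomedullin receptor, were at 1949, 2224 and 2375 CPM and at 149, 104 and 133 CPM.

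**Figure D3:**
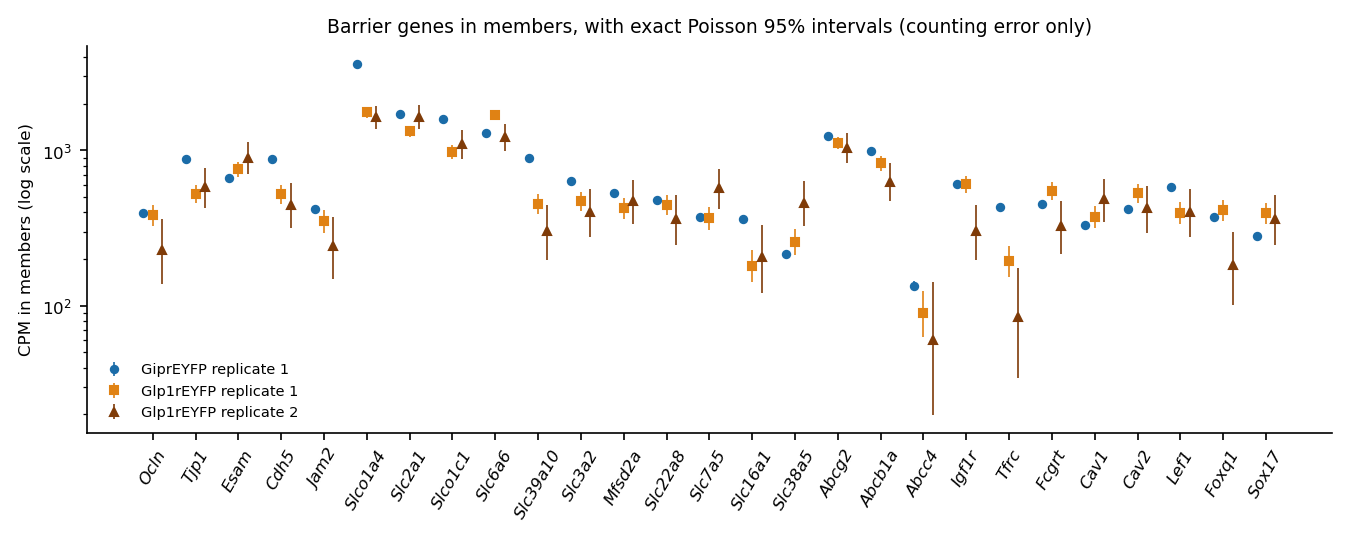
Level of named barrier genes in members, in CPM on a logarithmic axis, with 1 point per library and exact Poisson 95% intervals. The intervals widen from the *Gipr*EYFP library (682 members) to *Glp1r*EYFP replicate 2 (11 members), while *Slc2a1*, *Abcg2* and *Mfsd2a* lie close together and *Tfrc* is spread from 430.5 to 84.8 CPM.

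The reporter and the receptors that define the mice were scarce. EYFP was at 48.6 (42.9 to 54.8), 64.6 (42.2 to 94.7) and 48.5 (13.2 to 124) CPM, with a UMI in 168 of 682 members (24.6%), 15 of 62 (24.2%) and 3 of 11 (27.3%). Empty droplets held 244, 156 and 170 CPM and oligodendrocytes 174, 134 and 145 CPM. Both members and oligodendrocytes were thus below the level of free RNA in all 3 libraries. Free RNA makes up only a part of the UMIs of a cell, so this comparison cannot decide whether members expressed the reporter. That was not tested. After thinning every cell to 3000 UMIs, 11.9%, 19.4% and 9.09% of members and 34.4%, 30.4% and 35.1% of oligodendrocytes had an EYFP UMI. In the *Gipr*EYFP library, droplets with endothelial and pericyte transcripts were at 446 CPM and pericytes at 989 CPM. *Gipr* had 3 UMIs in the *Gipr*EYFP members (0.550 CPM, against 12.9 CPM in empty droplets and 8.13 CPM in pericytes) and 0 in the others, which allows up to 7.46 and 36.4 CPM. *Glp1r* had 1 UMI in the *Gipr*EYFP members and 0 in both *Glp1r*EYFP libraries.

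Fenestrated endothelium was not found among the members. *Plvap* had a UMI in 1, 1 and 0 members, and the upper 95% Clopper-Pearson limits for the share of members with a UMI were 0.814%, 8.66% and 28.5%. Of the 12, 10 and 12 barcodes with 2 or more *Plvap* UMIs, 5, 1 and 1 had a UMI of *Pecam1*, and none of these had 10 *Cldn5* UMIs. A barcode with little *Cldn5* fails the rule, so the rule itself keeps such cells out.

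Members varied along the arterial to venous order. Members were set apart by anchor genes, with at least 2 UMIs of *Bmx* (a kinase of arterial endothelium), *Mfsd2a* (capillaries), *Slc38a5* (an amino acid carrier of veins and venous capillaries) or *Vwf* (von Willebrand factor, large veins and arteries) against 0 UMIs. *Mfsd2a* was reached in 79.2%, 72.6% and 72.7% of members, *Slc38a5* in 38.3%, 40.3% and 45.5%, *Vwf* in 8.36%, 6.45% and 9.09%, and *Bmx* in 3.23%, 3.23% and 18.2% (22, 2 and 2 members). No member reached it for *Bmx* and *Slc38a5* together, where the product of the shares was 8.42, 0.806 and 0.909 members, whereas 217 members of the *Gipr*EYFP library did for *Mfsd2a* and *Slc38a5*, where the product was 207. These groups were made from the same cells, so the levels below are a description with no test, and they are given for the *Gipr*EYFP library, where the groups held enough cells.

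In the 22 members with *Bmx*, all 16 other arterial genes with at least 10 UMIs were at higher levels than in members without. *Vegfc*, a VEGF family ligand, was at 183 CPM with *Bmx* and 7.06 CPM without (25.9-fold), *Stmn2* at 303 and 15.1 CPM (20.1-fold), *Fbln2*, a matrix protein, at 119.8 and 10.0 CPM, and *Sema3g*, a semaphorin of arteries, at 309 and 49.4 CPM. *Hey1*, a target of Notch, was at 239.7 and 54.9 CPM, and *Edn1*, the vasoconstrictor endothelin, at 473 and 124 CPM. Of the 12 capillary genes, 11 were at lower levels in the same members. *Car4*, a carbonic anhydrase of capillaries, was at 133 CPM with *Bmx* and 1553 CPM without, *Tfrc* at 37.8 and 455 CPM, and *Cxcl12*, the most abundant of the list, at 2845 and 4481 CPM. Of 11 venous genes, 7 were at lower levels with *Bmx*, among them *Tmsb10* at 215 and 1942 CPM, and 4 at higher levels. Depth did not separate these groups, with medians of 6487 and 7160 UMIs.

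With *Slc38a5*, all 10 other venous genes with at least 10 UMIs were at higher levels, 16 of 17 arterial genes at lower levels, and the 12 capillary genes were split 6 and 6. Members with 2 or more UMIs had 2800 CPM of *Tmsb10* against 898 CPM in those without (3.12-fold), 2031 against 877 CPM of *Car4*, 48.1 against 14.1 CPM of *Il1r1*, an interleukin receptor, and 25.5 against 2.42 CPM of *Apln*, the ligand of the apelin receptor. They had 677 against 1481 CPM of *Glul*, glutamine synthetase, 2966 against 5536 CPM of *Cxcl12* and 20.0 against 114 CPM of *Sema3g*. In *Glp1r*EYFP replicate 1, where 25 members had *Slc38a5* and 26 did not, *Tmsb10* was at 6049 against 3350 CPM, *Car4* at 2068 against 1028 CPM, *Glul* at 548 against 1043 CPM and *Cxcl12* at 2352 against 4797 CPM, in the same directions. *Il1r1*, at 19.9 against 29.4 CPM from 4 UMIs in each group, did not have the direction of the *Gipr*EYFP library. Members with *Slc38a5* were somewhat deeper, with medians of 8076 against 6847 UMIs in the *Gipr*EYFP library.

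In the 57 members with *Vwf*, 9 of 10 other venous genes were at higher levels than in members without, and of 17 arterial genes 8 were higher and 9 lower. They were deeper, with medians of 8779 against 7046 UMIs, and held 4 members that also reached *Bmx*, where the product of the shares was 1.84, and 30 that reached *Slc38a5*, where it was 21.8. *Vcam1*, an adhesion molecule for leukocytes, was at 144 CPM with *Vwf* and 21.6 CPM without, *Angpt2*, an angiopoietin, at 55.9 and 8.58 CPM and *Il1r1* at 75.8 and 21.8 CPM. With *Mfsd2a*, *Ivns1abp* was at 249.8 CPM against 79.6 CPM without, *Slc16a1* at 378 against 183 CPM and *Vcam1* at 13.8 against 94.6 CPM. In *Glp1r*EYFP replicate 1, with 45 members with *Mfsd2a* and 10 without, *Ivns1abp* was at 139 against 186 CPM, in the other direction.

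**Figure D4:**
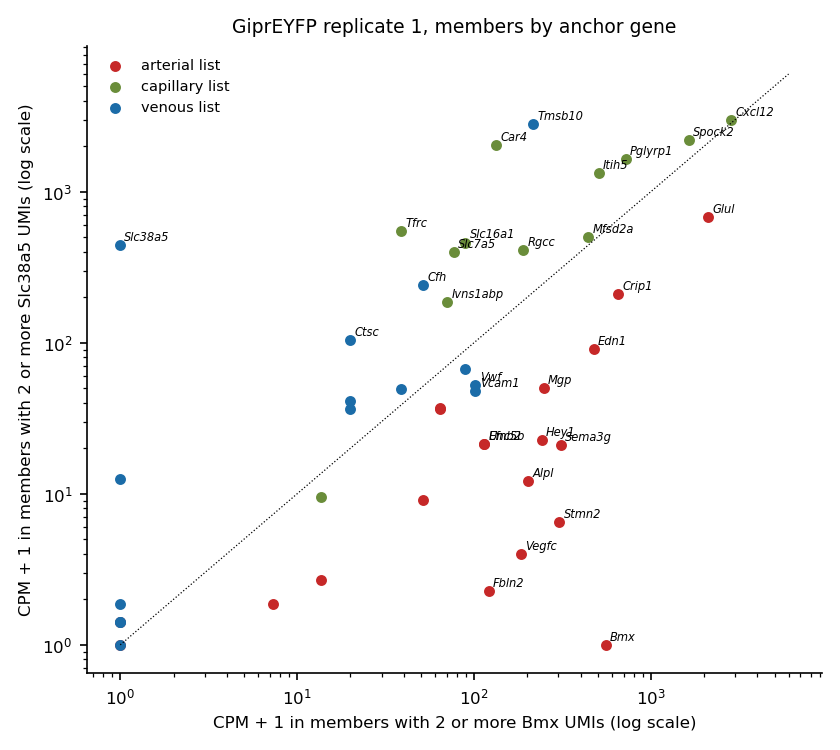
Levels of the arterial, capillary and venous lists in *Gipr*EYFP members, in CPM + 1 on logarithmic axes, with members that had at least 2 *Bmx* UMIs on the horizontal axis and those with at least 2 *Slc38a5* UMIs on the vertical axis, 1 point per gene. Arterial genes such as *Vegfc* (183 and 2.98 CPM) lie below the dotted line of equal level, and *Car4* (133 and 2031 CPM) and *Tfrc* lie above it.

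Genotype was compared on UMIs summed over the members of each library, with the edgeR quasi-likelihood test and Benjamini-Hochberg adjustment over all 9816 genes with at least 30 UMIs. The design has 1 residual degree of freedom and assumes that the lone *Gipr*EYFP library varies like the 2 *Glp1r*EYFP libraries. Genotype and library cannot be told apart, and the p-values measure the spread between these libraries, which may be technical. edgeR estimated infinite prior degrees of freedom, so each gene was given the spread of a trend over all genes, and its own spread between the 2 *Glp1r*EYFP libraries did not enter its SE or p-value. The p-values below hold under that assumption only. At an adjusted p below 0.05, 95 genes (0.968%) were higher and 136 (1.39%) lower in the *Gipr*EYFP library, and DESeq2 called 7 (0.0713%) and 20 (0.204%), all of them among the edgeR calls. With libraries scaled to their totals in place of TMM factors, edgeR called 162 higher and 114 lower genes, and after every member was thinned to 3000 UMIs it called 0 and 0 of 7653 genes, with 281 and 334 at an unadjusted p below 0.05. In the thinned fit the prior degrees of freedom were 1.56, all 211 calls that could be tested kept their sign and 165 moved by less than 1 SE. The thinned counts were drawn from the same UMIs, so the kept signs are not separate support for the calls. DESeq2 was not run on the thinned sums. With the member that held the most UMIs of each gene left out, 529 genes with a mean of at least 300 CPM shifted by a median of -0.15, and *Slco1a4* (0.77), *Kdr* (0.75), *Col4a1* (0.79) and *Col4a2* (0.78) were among the calls lost in that fit. The median log2 ratio over all genes tested was 0.07, and 0.18 with totals.

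In the barrier lists, single genes were called. Of the solute carriers, 2 of 25 tested genes (8%, against 0.968% of all genes) were higher and none lower in the *Gipr*EYFP library, with a median log2 ratio of 0.40. These were *Slco1a4*, with a log2 ratio of 0.98 (SE 0.24, adjusted p = 0.0033 by edgeR and 0.041 by DESeq2), and *Slc39a10*, a zinc carrier, at 888, 452 and 303 CPM (1.04, SE 0.25, adjusted p = 0.0037 by edgeR only). The level of *Slco1a4* in the *Gipr*EYFP library was 2.05 and 2.20 times that in the *Glp1r*EYFP libraries, whose values lay close together. In the endothelial list, 2 of 20 genes (10.0%) were higher by edgeR only (median 0.21), *Pecam1* (log2 ratio 1.05, SE 0.25, adjusted p = 0.0032) and *Kdr*, the main VEGF receptor, at 924, 477 and 448 CPM (0.88, SE 0.25, adjusted p = 0.024). By edgeR and by DESeq2, 0 of the 7 efflux pumps, 19 Wnt genes and 30 transcription factors tested were called, with medians of 0.27, 0.21 and 0.05, and at an unadjusted p below 0.05 edgeR had 0, 2 and 6 of them. Over all 9816 genes, 612 higher and 568 lower genes passed that unadjusted threshold by edgeR. With 0.968% and 1.39% of all genes called, a count of 0 does not set lists of this size apart. Of the junction genes, 2 of 22 (9.09%) were higher by edgeR only (median 0.54), *Cgnl1*, which encodes paracingulin, at 410.0, 214 and 109 CPM and *Cldn11*.

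Other genes of vessel biology passed the edgeR test alone. *Tfrc* was higher in the *Gipr*EYFP library (log2 ratio 1.29, SE 0.28, adjusted p = 0.00094), as the only call of 11 receptors of transcytosis (9.09%, against 0.968% of all genes), and so was *Nrp1*, a co-receptor of VEGF, at 432, 224 and 84.8 CPM (1.12, SE 0.28, adjusted p = 0.0057). The basement membrane list had 3 of 17 genes (17.6%, against 0.968% of all genes) higher (median 0.68), the collagen IV chains *Col4a1* (1172, 579 and 521 CPM) and *Col4a2* (710.1, 375 and 254 CPM) and the laminin chain *Lamc1* (112, 39.8 and 24.2 CPM). In droplets with endothelial and pericyte transcripts these 3 genes were at 1746, 837 and 464 CPM, above the members. *Rgs5* was higher in the *Gipr*EYFP library by both tools (log2 ratio 1.33, SE 0.24, adjusted p = 9.0e-06 by edgeR), together with *Vtn* by edgeR, and pericyte transcripts in the free RNA moved in the same direction, with *Rgs5* at 3042, 645 and 399 CPM in empty droplets. The part of free RNA in these differences was not tested. Against *Glp1r*EYFP replicate 2 alone, the log2 ratio of CPM was 2.34 for *Tfrc*, 2.35 for *Nrp1*, 1.91 for *Cgnl1* and 2.02 for *Rgs5*, so the size of these differences depends on which library is compared.

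The arterial list had 4 of 17 genes lower by edgeR (23.5%, against 1.39% of all genes, median -0.03), of which DESeq2 called *Clu* alone. They were *Clu* (clusterin, 2.75, 47.2 and 194 CPM), *Stmn2*, the LIM protein *Crip1* (251, 480 and 1139 CPM) and the Notch ligand *Jag1* (36.1, 77.0 and 145 CPM). In *Glp1r*EYFP replicates 1 and 2, 1 member held 57.9% and 81.2% of the *Clu* UMIs and 48.1% and 63.6% of those of *Stmn2*. Without replicate 2 the log2 ratio of CPM was -4.10 for *Clu*, -1.45 for *Stmn2* and -0.94 for *Crip1*, and without replicate 1 it was -6.14, -3.44 and -2.18. The share of members with *Bmx* (3.23%, 3.23% and 18.2%) was also highest in *Glp1r*EYFP replicate 2, where it rests on 2 of 11 members, and its part in these calls was not tested. The levels of *Crip1* in empty droplets were 1105, 3903 and 5377 CPM, in the same order. By edgeR alone, *Tfrc* was the only call of 12 capillary genes (higher, 8.33%, against 0.968% of all genes, median 0.21). *Cavin3*, a coat protein of caveolae, was the only one of 10 genes of caveolae and vesicles (lower, 124, 191 and 351 CPM, 10%, against 1.39% of all genes, median of the list 0.23). *Jag1* was the only one of 14 signals to mural cells (lower, 7.14%, against 1.39%, median 0.22). Of 25 genes of the interferon response and MHC class I, edgeR called 1 higher (4%, against 0.968% of all genes) and 1 lower (4%, against 1.39%), with a median of -0.12. The interferon receptor chain *Ifnar1* was higher (249.5, 102 and 96.9 CPM) and *Ifitm3*, an inducible antiviral membrane protein, lower (1435, 2219 and 2544 CPM). Of the 11 hormone and neuropeptide receptors and 8 genes of nitric oxide and prostanoids tested, 0 were called by either tool, with 3 and 1 at an unadjusted p below 0.05 by edgeR. The same held for 6 tip cell genes (median 1.02) and 2 genes of fenestrated vessels, with 2 and 0 at an unadjusted p below 0.05. Over all 9816 genes, 612 higher and 568 lower genes passed that unadjusted threshold by edgeR, and 0.968% and 1.39% were called.

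The genes lower in the *Gipr*EYFP library included ribosomal protein and metallothionein genes, though none of them among the 10 largest changes. Of the 78 ribosomal protein genes tested, 17 (21.8%, against 1.39% of all genes) were lower and 0 higher by edgeR, 11 of them also by DESeq2. *Rps29* was at 1660, 3850 and 4483 CPM (log2 ratio -1.42, SE 0.25, adjusted p = 6.5e-06) and *Rps27* at 811, 1775 and 2629 CPM (-1.51, SE 0.26). For both genes the *Gipr*EYFP value lay well below either *Glp1r*EYFP value. Oligodendrocytes of the same libraries showed the same order, with *Rps27* at 247, 556 and 763 CPM and the 78 genes summing to 34890, 46840 and 52430 CPM, against 72760, 103600 and 117100 CPM in members. In the edgeR interaction test against oligodendrocytes 0 of the 17 were called, with 0 at an unadjusted p below 0.05, and no other tool was run on it. Over all 8871 genes of that test, 88 and 44 were called, and 388 and 225 passed the unadjusted threshold. *Mt1*, a metallothionein that binds zinc and copper, was at 298, 1442 and 993 CPM (-2.17, SE 0.27, adjusted p = 6.5e-13) and *Mt2* at 40.9, 194 and 254 CPM (-2.48, SE 0.34), and *Mt1* in oligodendrocytes was at 284, 500.2 and 719 CPM. *Tmsb10*, an actin-sequestering thymosin that is high in venous endothelium, was at 1834, 4874 and 4204 CPM (-1.41, SE 0.25, adjusted p = 7.0e-06), while oligodendrocytes had 302, 323 and 291 CPM.

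Of 27 genes of the immediate early and stress response tested, 8 (29.6%, against 1.39% of all genes) were lower and 1, *Hsp90aa1* (3.70%, against 0.968%), higher in the *Gipr*EYFP library by edgeR, with a median log2 ratio of -0.49. DESeq2 called only *Hspa1a*, and with the highest member of each gene left out edgeR did not call *Hspa1a* (-1.79, from -2.79). *Jun* was at 387, 624 and 788 CPM (-0.93, SE 0.26, adjusted p = 0.019) and *Jund* at 572, 858 and 1260 CPM (-0.94, SE 0.26, adjusted p = 0.015). The other 6 genes that were lower (*Junb*, *Hspa1a*, *Fos*, *Hspa1b*, *Gadd45g* and *Socs3*) were carried by few cells. In *Glp1r*EYFP replicate 2, 1 member held between 57.1% (*Junb*) and 100% (*Fos* and *Socs3*) of the UMIs of each, and in replicate 1 the highest member held 43.9% of *Hspa1a* and 45.8% of *Fos*. Empty droplets held 168, 1828 and 1738 CPM of *Fos*, in the same direction as the members, and the part of free RNA was not tested.

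Among the largest log2 ratios were genes of other cell types, many with a large part of their UMIs in 1 member. *Hbb-bs*, beta-globin, was at 1816 CPM in the *Gipr*EYFP library and 0 UMIs in the others, at least 244-fold and 50-fold higher against a floor of 3 UMIs per library, but 1 member of 15080 UMIs held 55.4% of it, and 47.4%, 53.9% and 67.8% of *Hba-a1*, *Hba-a2* and *Hbb-bt*. With the highest member of each gene left out, edgeR still called these globin genes. Their fitted log2 ratios were then 13.62, 11.96, 11.50 and 10.48, from 14.80, 12.90, 12.63 and 12.14. The oligodendrocyte list had 7 of 8 genes (87.5%, against 0.968% of all genes) higher by edgeR and none by DESeq2 (median log2 ratio 2.64), and the deepest member, with 45579 UMIs, held 83.8% of *Klk6*. Of the genes lower in the *Gipr*EYFP library, *Ttr*, transthyretin of the choroid plexus, had 91.2% of its UMIs of *Glp1r*EYFP replicate 1 in 1 member, and *C1qc*, a microglial complement gene, had 94.3% in another. *Tagln*, a smooth muscle gene, was at 12.7, 104 and 206 CPM in members and 804.5, 9919 and 9682 CPM in empty droplets. In 8 of the 95 higher and 14 of the 136 lower genes, 1 member held at least 50% of the UMIs of the genotype with the higher level, and in 67 and 88 no member held 10%. The venous list had 4 of 11 genes lower (36.4%, against 1.39% of all genes: *Lcn2*, *Vcam1*, *Tmsb10* and *Vwf*, median -1.41), of which DESeq2 called *Tmsb10*, and 1 member of *Glp1r*EYFP replicate 2 held 100%, 77.1% and 90.5% of the *Lcn2*, *Vcam1* and *Vwf* UMIs of that library. *Vcam1* was at 32.1, 7.46 and 582 CPM, so the *Glp1r*EYFP libraries lay on both sides of the *Gipr*EYFP library.

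**Figure D5:**
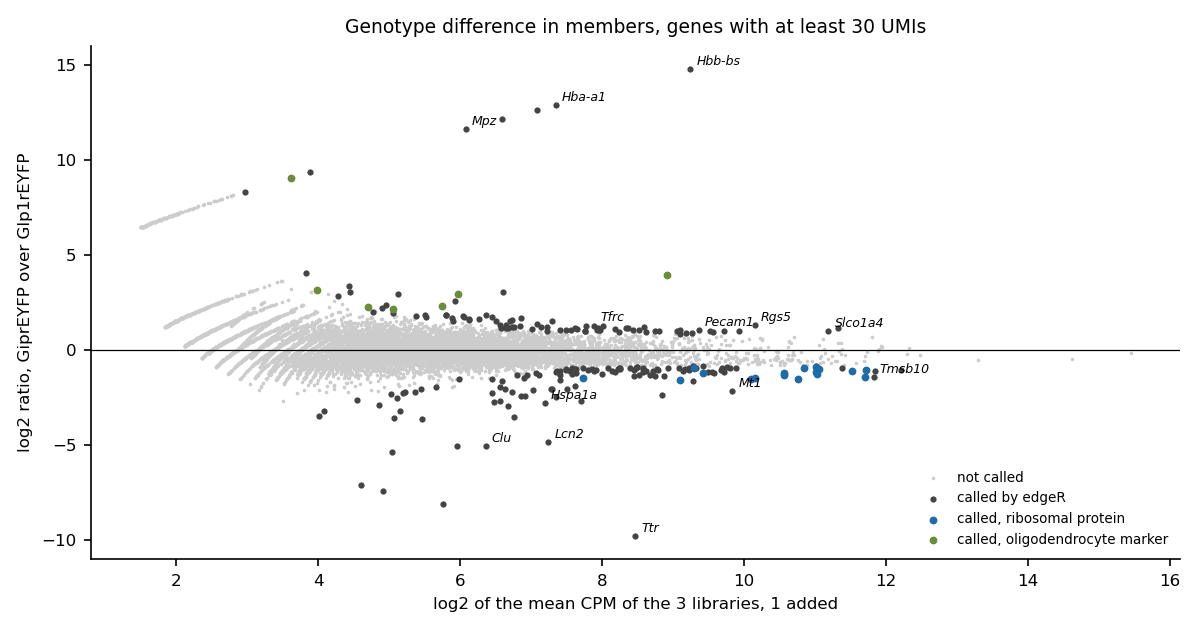
Log2 ratio of the *Gipr*EYFP over the *Glp1r*EYFP libraries in members against the log2 of the mean CPM, with 1 added, and 1 point per gene tested. The 95 higher and 136 lower calls are dark or colored, the 17 ribosomal protein genes lie below 0 at high levels, and fitted ratios of genes with 0 UMIs in a group, such as *Hbb-bs*, depend on the prior count.

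The genotype difference was also set against that in the oligodendrocytes of the same libraries, by an interaction term over 8871 genes. It was larger toward *Gipr*EYFP in members for 88 genes (0.992%) and smaller for 44 (0.496%). Like the genotype fit, this fit had 1 residual degree of freedom. It used the same member sums as the genotype calls, so a shared direction is favored by that selection and is not separate support. Of the 85 higher and 119 lower genotype calls that could be tested, 19 and 12 also differed from oligodendrocytes in the same direction. They included *Mt1* (-1.07, SE 0.22, adjusted p = 0.00015), *Tmsb10* (-1.28, SE 0.21, adjusted p = 1.3e-06) and *Jcad*, a junction-associated protein of endothelium, at 1174, 621 and 399.8 CPM in members and 6.09, 24.8 and 9.09 CPM in oligodendrocytes (2.75, SE 0.31). *Sptbn1*, beta-spectrin, was higher in the *Gipr*EYFP members by both tools, at 4177, 1899 and 1599 CPM (log2 ratio 1.14, SE 0.23, adjusted p = 0.00020), but oligodendrocytes had 392, 194 and 140 CPM and the interaction was 0.04 (SE 0.22, adjusted p = 0.999). For *Rgs5* the sign of the interaction was opposite (-1.28, SE 0.35, adjusted p = 0.023), with a larger ratio between the libraries in oligodendrocytes, where its level lay far below that in empty droplets.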

How the data were processed

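Single cells were sorted for EYFP and captured with the 10x Chromium 3′ kit, version 3. The authors made the counts with Cell Ranger, and the deposited values are whole-number UMI counts for all barcodes and 32533 genes, EYFP included, without normalization or filtering. The submitters' processing notes name Cell Ranger 6.1.2 and GRCm39, while the matrix headers name Cell Ranger 4. The libraries held 62705038, 27277448 and 13568994 UMIs. Members and gene lists were chosen with earlier results of these data known.

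Comparison barcodes met the same limits on depth, mitochondrial UMIs and *Acta2*. Droplets with endothelial and pericyte transcripts had at least 5 UMIs each of *Kcnj8* and *Abcc9* and at least 10 of *Cldn5*, with at most 1 of *Gkn3*, pericytes at least 5 UMIs each of *Kcnj8* and *Abcc9* with at most 1 of *Cldn5*, and oligodendrocytes at least 3 of *Mog* with at most 1 each of *Cldn5*, *Kcnj8* and *Abcc9*. Empty droplets had at most 100 UMIs. Levels are sums over cells divided by the total, with exact Poisson intervals for counts and exact Clopper-Pearson intervals for shares. A count of 0 was given a floor of 3 UMIs. Sums were tested in edgeR 4.0.16 (glmQLFit, TMM, genes with at least 30 UMIs), which gave every gene the spread of 1 common trend, and in DESeq2 1.42.0 under R 4.3.3. Calls of the 5 genes of the rule were left out. The interaction fit used library and cell class as terms. Cells were handled with Python 3.11.15, scipy 1.17.1 and scanpy 1.11.5, and the fits were tested on simulated data. Named genes are the listed markers and pathway genes, EYFP, *Gipr* and *Glp1r*, the 15 genes with the highest lowest level, the 15 with the highest ratio over pericytes and oligodendrocytes, the 10 largest calls in each direction and the 5 smallest adjusted p-values of the interaction. *Sptbn1*, *Mt1*, *Mt2* and the ribosomal protein genes were named after their values were seen, and so were the genes whose share in single members is given. Some genes that this rule names are not reported here. Alternatives changed the scaling, the filters, the tool, the limits of the rule and the depth, and left out each *Glp1r*EYFP library.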

Additional observations from a re-analysis of the deposited data

Results flagged for a closer look

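The genotype difference of 5 genes in members was not that of the oligodendrocytes of the same libraries, by the interaction term of the edgeR fit. These are the 5 genes with the smallest adjusted p-values of 8871 tested, and genotype and library cannot be told apart in any of them.

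*Slc1a2*, the glutamate carrier of astrocytes, had an interaction of -5.45 on the log2 scale (SE 0.41). It was at 4.03, 179 and 0 CPM in members and 52.5, 43.7 and 28.6 CPM in oligodendrocytes, and 95.8% of the UMIs in *Glp1r*EYFP replicate 1 came from 1 member. *Prom1*, a protein of membrane protrusions, had an interaction of 3.81 (SE 0.40), from 485, 303 and 170 CPM in members and 1.72, 17.4 and 4.76 CPM in oligodendrocytes, so most of it came from the oligodendrocytes. *Jcad* had an interaction of 2.75 (SE 0.31) and was higher in the *Gipr*EYFP members themselves by edgeR (log2 ratio 1.02, adjusted p = 0.0038), while the larger part of the interaction came from the oligodendrocytes, at 6.09, 24.8 and 9.09 CPM. *Hspa1a*, an inducible heat shock protein, had an interaction of -2.65 (SE 0.35), from 27.9, 142 and 267 CPM in members and 23.8, 18.7 and 37.7 CPM in oligodendrocytes, with 86.4% of its UMIs of *Glp1r*EYFP replicate 2 in 1 member. *Parvb*, an adaptor of integrin adhesions, had an interaction of 2.58, from 211, 179 and 158 CPM in members and 4.02, 21.2 and 16.5 CPM in oligodendrocytes, and it was not called in the members alone (adjusted p = 0.89).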

How the results depend on the processing

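The number of *Gipr*EYFP members was 603 with a minimum of 5000 UMIs, 553 with at least 20 *Cldn5* UMIs, 534 with no UMI of *Kcnj8* or *Abcc9* and 743 with at most 2 of each, and that of *Glp1r*EYFP replicate 1 was 35 and 42 under the first 2. The share of *Gipr*EYFP members with EYFP was 11.9% after thinning. Genes higher in the *Gipr*EYFP library numbered 162 with total scaling, 49 with at least 5000 UMIs, 7 by DESeq2 and 0 after thinning. They numbered 238 of 1565 tested with at least 10 UMIs in each library, sharing 30 of the 95 main calls. Without genes that were higher in empty droplets they numbered 216 of 2896 tested, sharing 45. Lower genes numbered 87 with no filter, 67 with 5000 UMIs, 20 by DESeq2 and 0 after thinning. Without the empty-droplet genes they numbered 233 of 2896, sharing 55 of the 136 main calls. The interaction called 21 smaller genes with no filter. With the highest member of each gene left out, an alternative chosen after seeing the data, 72 and 174 genes were called, 61 and 97 of them the same genes, and the ratios of *Slc2a1* (-0.0066), *Abcg2* (-0.038) and *Ly6c1* (-0.0775), uncalled and near 0, changed sign under a shift that abundant genes shared (median -0.15 over 529 genes). Without 1 *Glp1r*EYFP library the log2 ratio of *Vcam1* ranged from -4.18 to 2.11. It reversed without replicate 2, where 1 member held 77.1% of its UMIs. The ratio ranged from -0.10 to 2.19 for *Klk6* and from -0.82 to 1.46 for *Spp1*, with counts under 3 entered as 3 UMIs. That floor set the negative values of *Klk6* and *Spp1* without replicate 1. They are lower bounds, and no reversal of these genes was observed. Leaving out a library left no residual degrees of freedom, so it gave no count of calls. Of the 72 named genes called, 0 of the 59 tested after thinning kept their call (in a fit whose prior degrees of freedom were 1.56, with all 211 calls tested keeping their sign on counts drawn from the same UMIs), 27 of the 54 with an adjusted p under DESeq2, 42 of 62 with the highest member left out, 62 of 67 in members with no UMI of *Kcnj8* or *Abcc9*, 63 of 68 without Scrublet doublets and 68 of 72 with total scaling. Without *Glp1r*EYFP replicate 1, 35 of the 72 ratios moved by more than the SD of the *Glp1r*EYFP libraries. The 2 that changed sign, *Klk6* and *Spp1*, did so only through the floor of 3 UMIs. Without replicate 2, 24 moved so and 1, *Vcam1*, reversed. No paired analysis was possible because the groups share only replicate number 1. With 62 and 11 members in the *Glp1r*EYFP libraries, depth there limits every genotype comparison, and genes under 30 UMIs were not tested.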
